A study of Mus musculus with 45 samples.

Results

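Regulatory T cells (Treg) of visceral adipose tissue (VAT) labelled as lacking Blimp1 were compared with the control Treg of the same fat depot. The comparison rests on 3 of the 45 libraries of the series, chosen by their titles in the count table: 2 from Blimp1fl/flFoxp3cre mice and 1 from Foxp3cre mice. Each Blimp1fl/flFoxp3cre library pooled the VAT of 5 males aged 25 weeks, and the Foxp3cre library pooled 4 males of that age. All mice were C57BL/6. In Blimp1fl/flFoxp3cre mice the Cre recombinase is expressed from Foxp3, a design meant to remove floxed Prdm1, the gene encoding Blimp1, in Treg. Foxp3cre controls carry the Cre with no floxed allele named. Treg of both lines were sorted by YFP per the labels, although the label of the second Blimp1fl/flFoxp3cre library names no fluorophore. As the control is a single pool, the spread between pools was taken from all 15 sorted Treg libraries, which further hold spleen Treg of both Cre genotypes (2 libraries each, pools of 4 males aged 25 weeks) and VAT and spleen Treg of male and female Foxp3RFP reporter mice (2 libraries each, pools of 4 mice aged 25 weeks, sorted by RFP, for VAT and of 3 mice, with no age given, for spleen). The 3 libraries hold 39344438 and 35282734 assigned reads for Blimp1fl/flFoxp3cre and 38857842 for Foxp3cre.

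Visceral fat of lean male mice holds a large population of Treg that differs from lymphoid Treg. These cells carry ST2, the receptor for the alarmin IL-33 encoded by Il1rl1, depend on the nuclear receptor PPARγ, and restrain inflammation in fat. Blimp1 is a zinc finger repressor of effector lymphocytes. In B cells and T helper cells it opposes Bcl6, the regulator of follicular helper T cells, and it competes with interferon regulatory factors for similar DNA sites.

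The labels of the control library disagree with each other. Its title and its tissue entry name VAT, whereas the source entry, which also gives its age and pool size, names spleens. Its Il1rl1 level was 1889 CPM (reads scaled to a common library size with TMM factors), against 33.3 and 52.5 CPM in Foxp3cre spleen Treg and 2556 and 1920 CPM in VAT Treg of Foxp3RFP males. The 24 genes listed as markers of visceral fat Treg summed to 14522 CPM in it, against 1576 to 3512 CPM in the 8 spleen Treg libraries, so these values go with the title and not with the source entry. Xist had 0 counts and Ddx3y 68.4 to 102 CPM in the 3 libraries, as for males.

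Prdm1, the targeted gene, lies on chromosome 10 from 44437174 to 44528558 (GRCm38, as all positions here). It was at 117 and 145 CPM in the Blimp1fl/flFoxp3cre libraries, at 74.6 CPM in the Foxp3cre library and at 156 and 154 CPM in VAT Treg of Foxp3RFP males. The libraries labelled Blimp1-deficient thus lay above their control and below the other males (log2 fold change against Foxp3cre 0.81, SE 0.40, edgeR quasi-likelihood test, Benjamini-Hochberg adjusted p = 0.485). In spleen Treg Prdm1 was at 64.9 and 42.7 CPM in the Blimp1-deficient libraries and at 25.9 and 18.45 CPM in the Foxp3cre libraries. That difference was not called either (log2 fold change 1.28, SE 0.32, adjusted p = 0.104 in the same test). Reads were counted over the whole gene, exons that stay after Cre included, so the deletion could not be checked, and "Blimp1-deficient" is used here as the label gives it. Foxp3, which defines the lineage, was at 183 and 111 CPM against 213 CPM in the control (log2 fold change -0.54, SE 0.53, adjusted p = 0.816), and at 815 and 607 CPM in Foxp3RFP males. The T cell genes Cd3e and Cd4 were at 507 and 497 against 399 CPM and at 886 and 832 against 799 CPM, and none of 9 T cell identity genes passed the test.

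The comparison called 304 of the 17139 genes in the fit (1.77%), with an adjusted p below 0.05 as the threshold. Of these, 161 were higher (0.939%) and 143 lower (0.834%) in the Blimp1-deficient libraries. The median log2 fold change of all genes was 0.0, with quartiles of -0.56 and 0.56. The smallest change called higher was 0.94 on the log2 scale and the smallest called lower had a size of 0.83, so no change below that size was called with 2 libraries against 1. Fewer genes were called when the first or the second Blimp1-deficient library was left out. Such a fit sets 1 library against 1 and has less power, so a lost call does not by itself mean a changed value. Among the 87 genes followed through the alternative runs, none reversed direction in these fits. A set of 81 genes, 51 higher and 30 lower, was called with both libraries and also without either in turn.

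**Figure D1:**
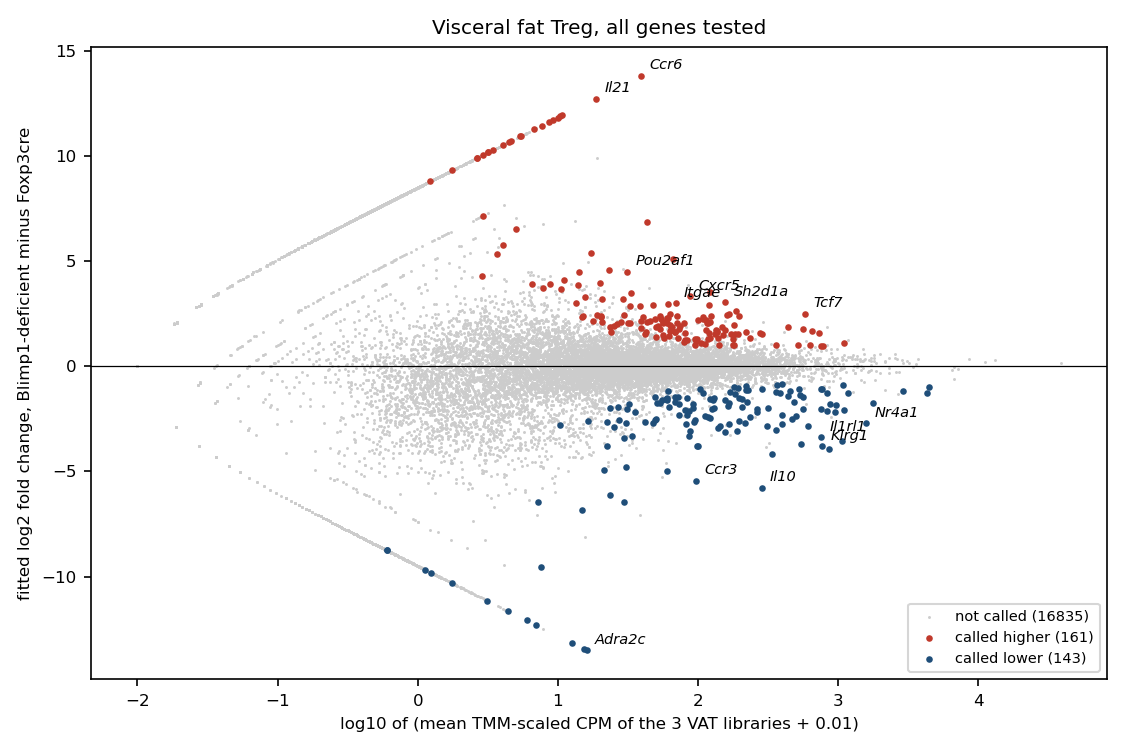
Fitted log2 fold change of every gene tested (vertical axis, Blimp1-deficient minus Foxp3cre VAT Treg) against log10 of the mean TMM-scaled CPM of the 3 VAT libraries plus 0.01 (horizontal axis). Red points are the 161 genes called higher, blue points the 143 called lower and grey points the rest; points along the upper and lower straight edges are genes with 0 counts in one of the groups, whose fitted values have no meaning as a size.

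Several of the genes that mark visceral fat Treg were lower in the Blimp1-deficient libraries. Of 24 listed markers 10 fell, 2 rose and 12 did not pass, with a list median of -1.10 on the log2 scale. Il1rl1 (chromosome 1, 40404864 to 40465418) was at 188 and 181 CPM against 1889 CPM, and Klrg1 (chromosome 6, 122270596 to 122282833), an inhibitory receptor of terminally differentiated lymphocytes, at 163 and 125 against 2015 CPM. Both genes lay far below the control and below both Foxp3RFP males, which had at least 1920 CPM of Il1rl1 and 2014 CPM of Klrg1. Il1rl1 fell by 3.36 (SE 0.27, adjusted p = 1.1e-05), a level 10.2-fold lower, and Klrg1 fell by 3.81 (SE 0.28, adjusted p = 1.1e-05). The same order of levels held for Fgl2, which encodes a secreted suppressive effector of Treg, at 160 and 136 against 2267 CPM (log2 fold change -3.93), and for Ccr2, at 123 and 93.7 against 1419 CPM (log2 fold change -3.71, adjusted p = 7.9e-05). In bulk libraries, fewer cells of a type and less RNA per cell cannot be told apart. The Blimp1-deficient VAT libraries still had more Il1rl1 than the 39.3 and 42.1 CPM of Blimp1-deficient spleen Treg.

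Of the 10 fallers, 5 were also called without the first and 5 without the second Blimp1-deficient library, and Il10, Pparg, Gata3, Areg and Ccr1 were called in neither case. Il10, the gene of the anti-inflammatory cytokine IL-10, was at 16.2 and 13.7 CPM against 822 CPM, below the 985 and 1201 CPM of Foxp3RFP males as well. It fell by 5.78 (SE 0.88, adjusted p = 0.00294), with an adjusted p of 0.0546 without the first and 0.0747 without the second library. Pparg, which encodes PPARγ, was at 9.09 and 8.17 against 84.8 CPM (adjusted p = 0.0165, and 0.138 and 0.171 without either library). Gata3, a transcription factor needed for ST2 expression, was at 107 and 79.9 against 313 CPM (adjusted p = 0.0219, and 0.0927 and 0.219 without either). Areg, the gene of the tissue repair factor amphiregulin, was at 201 and 198 against 1417 CPM (adjusted p = 0.0141, and 0.134 and 0.147 without either). The remaining fallers were the chemokine receptor genes Ccr1 (adjusted p = 0.0159, and 0.0927 and 0.199 without either library) and Cxcr6, of which Cxcr6 kept its call. The risers were Batf, a factor of effector Treg, at 176 and 163 against 83.2 CPM with an adjusted p of 0.0489, and Il1r2, the gene of the IL-1 decoy receptor, at 148 and 201 against 14.9 CPM (log2 fold change 3.54, adjusted p = 0.000799). Batf lost its call without either library (0.206 and 0.149). Irf4, Id2, Maf, Icos and Rora, which are also known in these cells, did not pass the test; Irf4, for example, was at 177 and 226 against 226 CPM.

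**Figure D2:**
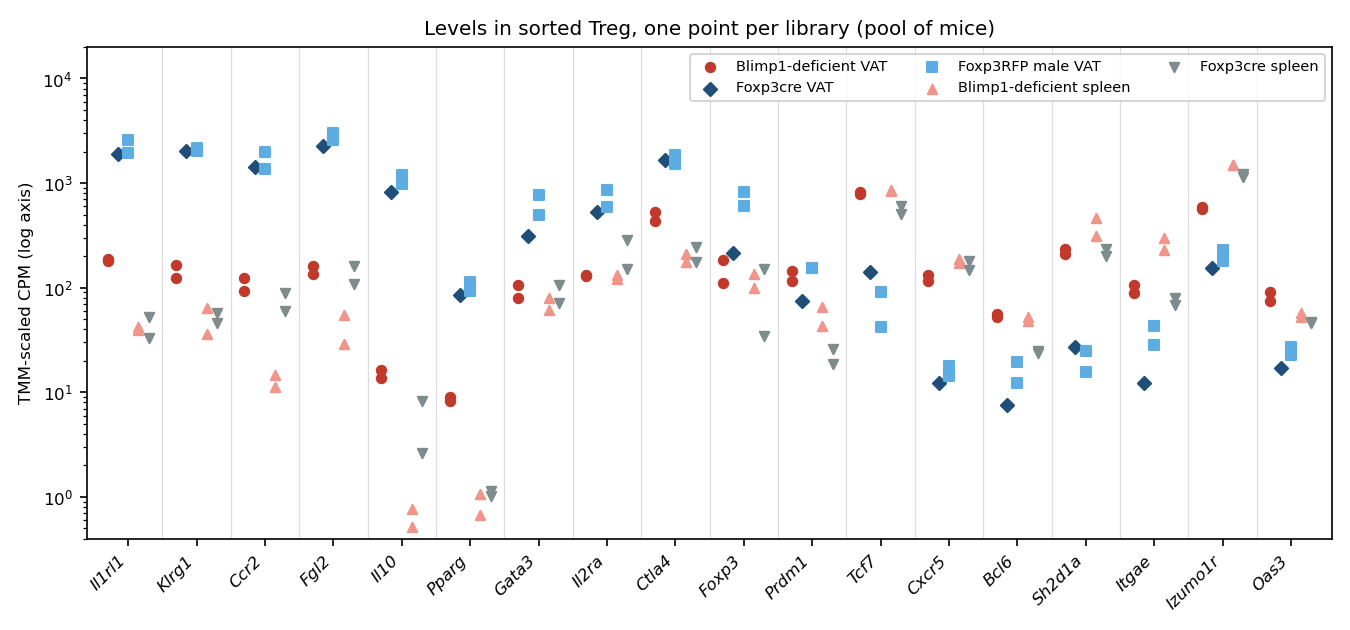
TMM-scaled CPM (log axis) of 18 genes, one point per library, in VAT Treg of Blimp1-deficient, Foxp3cre and Foxp3RFP male mice and in spleen Treg of both Cre genotypes. For Il1rl1, Klrg1, Ccr2, Fgl2, Il10 and Pparg both Blimp1-deficient VAT libraries lie below all 3 other VAT libraries, and for Tcf7, Cxcr5, Bcl6, Sh2d1a, Itgae, Izumo1r and Oas3 they lie above them.

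The core genes of Treg moved both ways. Of 17 listed genes 3 rose and 4 fell, with a median of -0.16. Il2ra, the gene of the high-affinity IL-2 receptor chain CD25, was at 128 and 132 CPM against 533 CPM in the control and 853 and 597 CPM in Foxp3RFP males. It fell by 2.03 (SE 0.32, adjusted p = 0.00357). Ctla4, which encodes the inhibitory receptor that strips costimulatory ligands, was at 529 and 434 against 1648 CPM (adjusted p = 0.0151, and 0.0887 and 0.171 without either library). Tnfrsf18 and Capg were the other fallers, and of the 4, 2 were called without the first and 1 without the second library. The risers were Izumo1r, which encodes folate receptor 4 (563 and 588 against 156 CPM, log2 fold change 1.88, SE 0.22, adjusted p = 0.000404), Nt5e, which encodes the ectoenzyme CD73 (126 and 147 against 29.3 CPM, log2 fold change 2.21), and Itgae, which encodes the integrin chain CD103 (88.1 and 107 against 12.3 CPM, log2 fold change 2.99). For all 3 risers the Blimp1-deficient levels lay above both Foxp3RFP males. Ikzf2, the gene of Helios, was at 224 and 288 against 247 CPM and Tigit at 362 and 359 against 456 CPM, and neither passed the test.

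Most listed genes of follicular T cells were higher in Blimp1-deficient VAT Treg. Of 12 listed genes 8 rose and none fell, with a median of 2.62. Cxcr5 (chromosome 9, 44511787 to 44526444), the receptor that guides lymphocytes to B cell follicles, was at 117 and 133 CPM against 12.4 CPM. Both Foxp3RFP males, at 18.0 and 14.3 CPM, were as low as the control. Cxcr5 rose by 3.34 on the log2 scale (SE 0.27, adjusted p = 1.1e-05). Sh2d1a, whose product SAP transmits signals of SLAM receptors between T and B cells, was at 209 and 234 against 27.1 CPM (log2 fold change 3.03, adjusted p = 0.000362). Btla, an inhibitory co-receptor, was at 74.9 and 84.4 against 19.2 CPM (log2 fold change 2.05, adjusted p = 0.00113). Bcl6 was at 55.5 and 52.7 against 7.54 CPM (log2 fold change 2.84, adjusted p = 0.017, and 0.075 and 0.0787 without either library). Il21, the gene of the follicular helper cytokine IL-21, was at 22.8 and 33.0 CPM and had 0 counts in the control, with 0.166 and 0.494 CPM in Foxp3RFP males. Its level was at least 354-fold higher than the limit of 3 counts in the control library (adjusted p = 0.0182, and 0.0561 and 0.0805 without either Blimp1-deficient library). Slamf6, Cd200 and Pou2af1 were the other risers (Slamf6 with adjusted p of 0.134 and 0.145 and Cd200 with 0.143 and 0.151 without either library), and 4 of the 12 genes, Pdcd1, Tox2, Ascl2 and S1pr2, did not pass. Pou2af1, at 40.9 and 50.5 against 2.02 CPM, is also a B cell coactivator, and the sum over 10 B cell markers was 1010 and 1269 CPM in the Blimp1-deficient libraries, 323 CPM in the control and 497 and 1182 CPM in Foxp3RFP males. Their part in the follicular genes was not tested; Cd79a, Ms4a1 and Pax5 were at 0 to 6.03 CPM in the 3 libraries, and Ighm made up most of the sum, at 961 and 1228 against 299 CPM.

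Genes that published work has placed under repression by Blimp1 overlap with that list. Of 10 such genes 5 rose and none fell, with a median of 3.09: Bcl6, Cxcr5, Tcf7, Ccr6 and Spib. The control library had 0 counts for 3 of the 10, whose fitted changes have no meaning as a size. Against Foxp3RFP males 4 of the 10 rose and none fell, with a median of 1.03. In spleen Treg none rose and 2 fell, with a median of 0.15. Spib was among those fallers, at 2.37 and 1.23 CPM against 56.7 and 176 CPM in Foxp3cre spleen Treg. The B cell markers were lower there too, with sums of 1467 and 1446 CPM against 2851 and 7331 CPM. The part of B cells in the spleen values of Spib was not tested. Tcf7, which encodes TCF-1, a factor of resting and stem-like T cells, was at 779 and 814 CPM against 142 CPM in the control and 91.5 and 41.9 CPM in Foxp3RFP males. It rose by 2.49 (SE 0.36, adjusted p = 0.00175). Ccr6 (chromosome 17, 8236041 to 8258519), the receptor for the chemokine CCL20, was at 56.2 and 62.1 CPM, with 0 counts in the control and 7.67 and 4.11 CPM in Foxp3RFP males. It was at least 750-fold higher than the limit of 3 counts (adjusted p = 1.29e-05), while against Foxp3RFP males its log2 fold change was 3.33 (SE 0.44, adjusted p = 0.000357). Myc, Id3, Ciita, Il2 and Pax5 did not pass the test. Myc was at 80.1 and 66.1 against 134 CPM, the other way round from the risers.

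In the list of resting T cells and lymphoid homing, with 15 genes, Tcf7 and Satb1 rose and none fell, and the median was 1.11. Satb1, a chromatin organiser of T cells, was at 74.8 and 75.8 against 17.9 CPM (adjusted p = 0.0266, and 0.0982 and 0.113 without either library). Ccr7, the receptor that guides T cells into lymph nodes, was at 412 and 363 against 91.4 CPM and did not pass (adjusted p = 0.173). With 3 libraries left out of the fit whose other-cell markers summed furthest above their own replicate (Foxp3cre spleen replicate 2 and the second Foxp3RFP VAT library of each sex, a choice made after seeing the data), 6 genes of this list were called, all higher.

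Among 18 chemokine receptors 4 fell, namely Ccr1, Ccr2, Ccr3 and Cxcr6, and 2 rose, Cxcr5 and Ccr6. Ccr3, the eotaxin receptor, was at 8.06 and 4.78 CPM against 278 CPM in the control and 385 and 234 CPM in Foxp3RFP males. It fell by 5.44 (SE 0.54, adjusted p = 8.6e-05). Cxcr6, the receptor for the membrane-bound chemokine CXCL16, was at 225 and 137 against 1033 CPM (log2 fold change -2.51, adjusted p = 0.00224). Ccr4, Ccr8, Cxcr3 and Cxcr4 did not pass; Cxcr4, for example, was at 1357 and 1234 against 1284 CPM.

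Among 18 co-receptors 5 rose and 3 fell. Besides Btla and Cd200, the risers were Cd96, an adhesion receptor (170 and 169 against 58.0 CPM, log2 fold change 1.55, adjusted p = 0.00345), Lag3, a ligand of MHC class II (182 and 207 against 54.0 CPM, adjusted p = 0.0154, and 0.0526 and 0.0918 without either library), and Cd160, at 18.3 and 13.6 CPM with 0 counts in the control, at least 202-fold above the limit of 3 counts. The fallers were Klrg1, Ctla4 and Tnfrsf18, and Pdcd1, at 230 and 151 against 145 CPM, did not pass. Of 13 genes of the IL-1 receptor family and its signalling, Il1rl1 and the kinase gene Irak2 (adjusted p = 0.0231, and 0.22 and 0.0871 without either library) fell, and Il1r2 and Il18r1, the gene of an IL-18 receptor chain, rose. Il18r1 was at 89.2 and 106 against 18.9 CPM (adjusted p = 0.0163, and 0.0536 and 0.0924 without either library). Il1rap, the co-receptor that ST2 signals through, was at 23.9 and 19.7 against 38.4 CPM and did not pass.

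Of 16 tested cytokine genes 2 fell, Il10 and Areg, and 2 rose, Il21 and Ltb, which encodes lymphotoxin beta (707 and 809 against 381 CPM, log2 fold change 0.99, adjusted p = 0.0398). None of the 4 was called without either Blimp1-deficient library. Tgfb1 was at 281 and 284 against 436 CPM and did not pass. The receptor chain gene Il10ra, chosen after its values were seen, was at 110 and 102 CPM against 859 CPM and fell by 3.02 (SE 0.24, adjusted p = 1.1e-05). The levels of Il10ra in Foxp3RFP males were 874 and 637 CPM, so the Blimp1-deficient libraries lay below all 3 other male VAT libraries.

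Genes of lipid handling and of eicosanoid biology were called in both directions. Of 18 lipid genes 3 fell and 1 rose, with a median of -1.21. Of all genes tested 0.834% were called lower and 0.939% higher. Plin2, which coats lipid droplets, was at 63.6 and 46.5 against 459 CPM (log2 fold change -3.06, adjusted p = 0.00398, and 0.0353 and 0.0791 without the first and the second library). Hilpda, an inhibitor of lipolysis (86.5 and 57.4 against 440.2 CPM), and Pparg were the other fallers, and the desaturase gene Scd2 (216 and 225 against 75.4 CPM) the riser. Hilpda and Scd2 lost their calls without either library (adjusted p from 0.0558 to 0.247). The 9 adipocyte markers moved alongside, with sums of 60.9 and 57.7 CPM against 466 CPM in the control and 210 and 855 CPM in Foxp3RFP males, and none of the 9 passed the test; their part in the lipid genes was not tested. Anxa1, whose product annexin A1 resolves inflammation, was at 54.8 and 45.02 against 906 CPM and fell by 4.18 (SE 0.54, adjusted p = 0.000799). Ptger2, a receptor for prostaglandin E2, was at 49.4 and 35.0 against 10.2 CPM and rose by 2.05 (adjusted p = 0.00308). Ltb4r1, the leukotriene B4 receptor, was at 79.9 and 51.2 against 829 CPM and did not pass (adjusted p = 0.0823).

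Among further fallers, S100a4 and S100a6 encode calcium-binding proteins and were chosen after their values were seen. S100a4 was at 626 and 434 against 2257 CPM and S100a6 at 451 and 345 against 1716 CPM. S100a4 fell by 2.09 and S100a6 by 2.11 (adjusted p = 0.000729 and 0.000503), and both calls were kept without either library. In spleen the fitted differences pointed the other way, with log2 fold changes of 0.91 for S100a4 and 0.70 for S100a6, neither of them called (adjusted p = 0.097 and 0.25). The tissue difference, VAT minus spleen, was -3.00 for S100a4 and -2.81 for S100a6 (adjusted p = 0.000616 and 0.000901).

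Some interferon-stimulated genes were higher. Of 25 listed genes 7 rose, none fell and 18 did not pass, with a median of 0.97, and the risers included Oas3, Oas1a, Ifi44, Ifit2, Rtp4 and Ifi27l2a. Of the 7, 4 were called without the first and 4 without the second Blimp1-deficient library. Oas3 and Oas1a, which encode sensors of double-stranded RNA, were at 75.3 and 90.5 against 17.1 CPM and at 48.5 and 56.9 against 11.9 CPM. Oas3 rose by 2.28 on the log2 scale (SE 0.30, adjusted p = 0.000863) and Oas1a by 2.15 (SE 0.41, adjusted p = 0.0119, and 0.0747 without the second library). The classical genes Isg15, Mx1, Ifit1 and Irf7 did not pass the test, Isg15 being at 20.1 and 21.4 against 16.2 CPM. The promoters of the 2 Oas genes are shown because each holds the core of the interferon-stimulated response element that interferon regulatory factors bind. The promoters of the risers Ifit2 and Ifi44 do not hold it. Both Oas promoters are RefSeq sequences of GRCm38.p6 on the minus strand, with the core in capitals. Each runs from 250 bases before to 50 after the RefSeq start used for the window. They lie at chr5:120777610-120777909 for Oas3 and chr5:120907476-120907775 for Oas1a.
Oas3: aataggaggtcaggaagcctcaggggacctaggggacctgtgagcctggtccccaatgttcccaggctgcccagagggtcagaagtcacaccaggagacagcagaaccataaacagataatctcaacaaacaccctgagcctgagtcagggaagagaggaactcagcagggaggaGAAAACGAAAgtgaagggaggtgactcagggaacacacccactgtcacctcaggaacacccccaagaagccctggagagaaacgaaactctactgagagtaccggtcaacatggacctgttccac
Oas1a: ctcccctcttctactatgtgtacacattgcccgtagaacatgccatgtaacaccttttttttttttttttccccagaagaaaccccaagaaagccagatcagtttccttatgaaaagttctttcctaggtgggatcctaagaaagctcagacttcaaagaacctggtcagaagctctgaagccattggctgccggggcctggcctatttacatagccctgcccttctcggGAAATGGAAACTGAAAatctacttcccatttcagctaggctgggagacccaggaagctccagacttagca
The capitals begin 75 bases before the start used for the window in Oas3 and 20 bases before it in Oas1a, where 2 matches overlap. The gene spans listed for Oas3 and Oas1a reach further upstream, to 120777684 and 120907544.

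The response element core was searched as GAAANNGAAA and a core of published Blimp1 sites as AGNGAAAG, on both strands of these windows. The response element core was present in 10 of the 17 interferon-stimulated genes with a promoter in the RefSeq table (58.8%), against 3.99% of all 27025 genes in the table. Among the genes called higher it was present in 9 of 121 (7.44%), and among those called lower in 3 of 111 (2.70%). The Blimp1 core was present in 10 of 121 genes called higher (8.26%), 10 of 111 called lower (9.01%) and 9.91% of all genes. It was present in 0 of the 4 interferon-stimulated genes called higher. A match of letters in these windows is a description, not a binding site.

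Some cell cycle genes were higher. Of 22 listed genes 3 rose and none fell, with a median of 1.79, while 0.939% of all genes tested were called higher. Ccna2 (cyclin A2) was at 130 and 165 against 29.1 CPM, Rrm2 (ribonucleotide reductase) at 138 and 168 against 33.9 CPM, and Mcm5 (a subunit of the replicative helicase) at 216 and 252 against 81.3 CPM, with adjusted p of 0.0218, 0.0304 and 0.0147. All 22 genes had a fitted change above 0, and the count moved with the method, from 3 genes with edgeR to 14 with DESeq2, and with edgeR to 1 without the first and 0 without the second Blimp1-deficient library. Mki67, the gene of the proliferation marker Ki-67, was at 14.3 and 4.84 against 2.16 CPM and did not pass (adjusted p = 0.779). Against Foxp3RFP males, in the same edgeR fit, 14 of the 22 genes were called higher and none lower, with a median of 1.64.

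Immediate early genes respond within minutes to stimulation and to tissue dissociation. Of 20 listed genes 8 fell, none rose and 12 did not pass, with a median of -1.27: Fosb, Egr1, Nr4a1, Cd69, Zfp36, Ier2, Junb and Klf6. Nr4a1, a reporter of antigen receptor signals, was at 575 and 526 against 3618 CPM, with 6443 and 2154 CPM in Foxp3RFP males. It fell by 2.72 (SE 0.50, adjusted p = 0.00992). The 20 genes summed to 9939 and 9400 CPM in the Blimp1-deficient libraries, 28534 CPM in the control and 41960 and 26098 CPM in Foxp3RFP males, whereas all 4 spleen libraries of the Cre lines lay between 2550 and 3152 CPM. None of the 20 genes was called when either Blimp1-deficient library was left out. The labels do not give the times of digestion or sorting, and the part of handling in the genes that fell with this list was not tested.

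**Figure D3:**
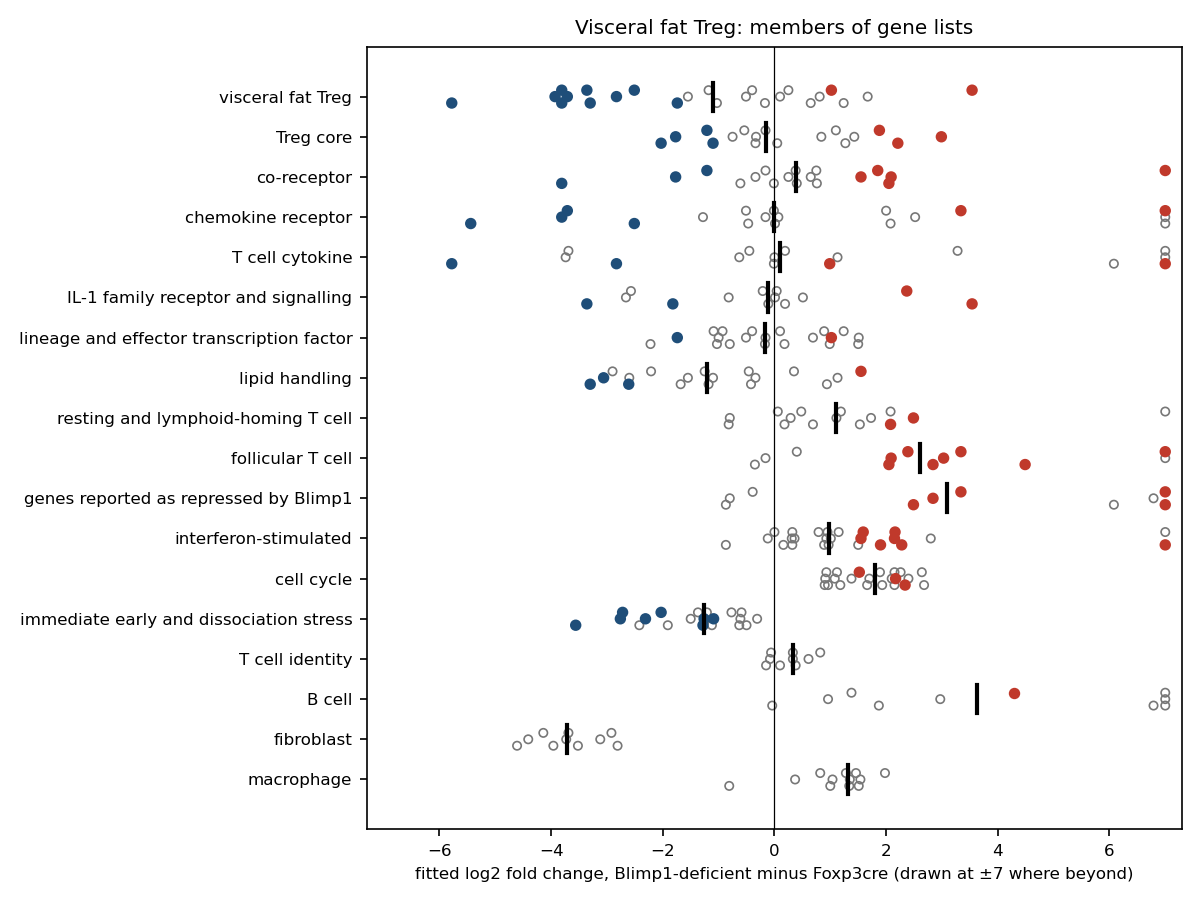
Fitted log2 fold change, Blimp1-deficient minus Foxp3cre VAT Treg, of the tested members of 18 gene lists (values beyond 7 in size are drawn at 7). Filled points are called genes, red higher and blue lower, open points are not called, and the black bar is the list's median; follicular genes have 8 red points and immediate early genes 8 blue points.

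The largest falls included genes with no counts at all in the Blimp1-deficient libraries. There were 12 such genes among the 143. Adra2c, which encodes an adrenergic receptor, and Kcna4, which encodes a voltage-gated potassium channel, had 1830 and 1764 reads in the control (48.1 and 46.4 CPM). In Foxp3RFP males Adra2c was at 33.3 and 26.3 CPM and Kcna4 at 59.0 and 88.6 CPM, and both had 0 counts in all 4 spleen libraries of the Cre lines. Against the limit of 3 counts over the Blimp1-deficient group, Adra2c was at least 1230-fold and Kcna4 at least 1180-fold lower (adjusted p = 0.00509 and 0.0171). Mrgpra3, an itch receptor gene of sensory neurons, was at least 535-fold lower, with 21.5 and 32.5 CPM in Foxp3RFP males. These 3 genes lost their call without either library, with adjusted p from 0.0526 to 0.195. These bounds cover counting error only, since reads amplified by PCR without molecular identifiers are not independent molecules.

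Some of the largest falls are genes of stromal cells. Postn (periostin, a matrix protein of fibroblasts) was at least 338-fold lower, at 0 in both Blimp1-deficient libraries and at 13.2 CPM in the control. Apod was at least 964-fold lower than its 37.7 CPM in the control, and Col6a1, a collagen gene, was at 1.43 and 0.528 against 68.8 CPM. In Foxp3RFP males Postn was at 9.53 and 36.75 CPM, Apod at 3.15 and 6.35 CPM and Col6a1 at 25.2 and 105.5 CPM. The bound for Apod thus rests on a single control library that lay above both Foxp3RFP males. None of these 3 was called without either Blimp1-deficient library (adjusted p from 0.176 to 0.308). The 10 fibroblast markers summed to 85.9 and 118 CPM in the Blimp1-deficient libraries, 1091 CPM in the control and 642 and 2016 CPM in Foxp3RFP males; all 10 were lower by their values and none passed the test. Endothelial markers summed to 83.1 and 88.1 against 311 CPM and mesothelial markers to 6.69 and 8.09 against 104 CPM. The part of such cells in the falls was not tested. With the 3 libraries named above left out, Apod, Mrgpra3, Postn, Shank3, Col6a1 and Wwtr1 were no longer called, while 3 of the 10 fibroblast and 1 of the 9 adipocyte markers were then called lower. None of those 3 libraries is a VAT library of the Cre lines. Macrophage markers went the other way, at 1469 and 1238 against 916 CPM, with none of 12 called. Over 12 lists of other cell types with 101 genes the sums were 3300 and 3367 CPM against 4203 CPM. Mmp9 was listed as a granulocyte marker and fell (60.4 and 54.1 against 385 CPM, adjusted p = 0.0257, and 0.183 and 0.215 without either library), and it made up most of that list's 413 CPM in the control.

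**Figure D4:**
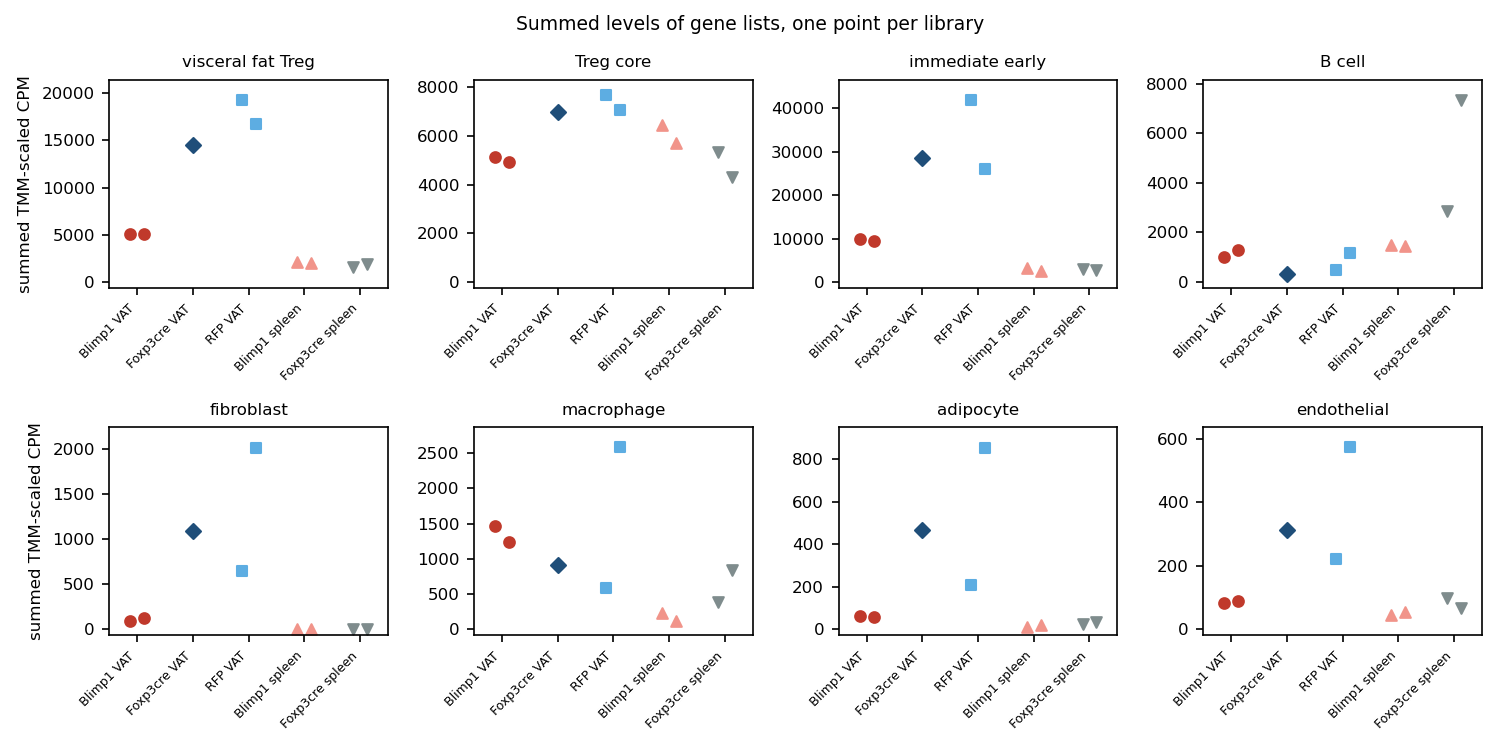
Summed TMM-scaled CPM of 8 gene lists in each library (one point per library) of Blimp1-deficient, Foxp3cre and Foxp3RFP male VAT Treg and of Blimp1-deficient and Foxp3cre spleen Treg. The visceral fat Treg, immediate early, fibroblast, adipocyte and endothelial sums of both Blimp1-deficient VAT libraries lie below the other 3 VAT libraries, and the second Foxp3cre spleen library has the highest B cell sum.

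Immunoglobulin variable genes also led the falls, namely Igkv9-120, Igkv3-4, Igkv5-39 and Ighv1-80. Igkv3-4 was at 0 and 0.0556 CPM against 22.8 CPM in the control, and at 0.0414 and 0.266 CPM in Foxp3RFP males. For Igkv3-4 the control differed from Foxp3RFP males (log2 fold change 7.14, adjusted p = 0.0111), and the Blimp1-deficient libraries did not pass against them (adjusted p = 0.606). Igkv9-120 was also highest in the control, at 17.97 CPM, with 0.788 and 0.304 CPM in Foxp3RFP males and 0 in both Blimp1-deficient libraries. It was called lower in Blimp1-deficient than in Foxp3RFP males (adjusted p = 0.0136). That call sets 0 counts against levels near the floor, so its fitted change has no meaning as a size. The control of Igkv9-120 did not pass against Foxp3RFP males (log2 fold change 5.04, adjusted p = 0.0603). Ighv1-80 and Igkv5-39 passed in neither of those comparisons. Both also lost their call against Foxp3cre when either Blimp1-deficient library was left out, with adjusted p of 0.0621 and 0.0656 for Ighv1-80 and 0.257 and 0.108 for Igkv5-39. These genes share reads with near-identical copies, so their counts are uncertain.

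Among the 161 genes called higher, 22 had 0 counts in the single control library. Of these, 6 were also called against Foxp3RFP males: Ccr6, Il21, Cd160, Kynu, Krt17 and Glt28d2. For others the control alone was at 0. Trmt12, a tRNA-modifying enzyme gene, was at 8.23 and 8.09 CPM in the Blimp1-deficient libraries, 1.78 and 4.64 CPM in Foxp3RFP males and 12.6 and 17.5 CPM in Foxp3cre spleen Treg, and Pfkfb4, a glycolytic regulator gene, was at 9.34 and 4.56 CPM in the Blimp1-deficient libraries and 3.07 and 12.7 CPM in Foxp3RFP males. The call of Trmt12 and Pfkfb4 against the control (adjusted p = 0.00311 and 0.011) was absent against Foxp3RFP males (0.372 and 1), so for such genes it rests on the single control library. Spib, among the genes listed as repressed by Blimp1, is of this kind, with 3.52 and 4.39 CPM against 0 in the control and 2.16 and 4.22 CPM in Foxp3RFP males.

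VAT Treg of Foxp3RFP males served as a further control, from another reporter line; line and any difference in processing cannot be told apart from genotype there. Against them 785 genes were called in Blimp1-deficient VAT Treg (4.58% of genes tested), 377 higher (2.2%) and 408 lower (2.38%). The count fell to 360 without the first Foxp3RFP male library and to 277 and 257 without the first or the second Blimp1-deficient library. Il1rl1 had a log2 fold change of -3.60 in this comparison and -3.36 against Foxp3cre, Klrg1 -3.86 and -3.81, Il10 -6.19 and -5.78, Cxcr5 2.95 and 3.34, and Tcf7 3.58 and 2.49. Both comparisons use the same Blimp1-deficient libraries, so they are not independent. The Foxp3cre control itself differed from Foxp3RFP males at 10 genes (0.0583%), 6 higher (0.035%) and 4 lower (0.0233%), with 677 genes at an unadjusted p under 0.05 and 160 called by DESeq2; its Il1rl1 and Klrg1 differed from theirs by -0.24 and -0.06 on the log2 scale, neither called. Foxp3 was lower in Blimp1-deficient VAT Treg than in Foxp3RFP males (log2 fold change -2.28, adjusted p = 0.00873), whereas against the Foxp3cre control it did not pass. The Foxp3cre control was itself below Foxp3RFP males for Foxp3, by a log2 fold change of -1.74 that was not called (adjusted p = 0.931).

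In spleen Treg the same genotypes gave 123 called genes (0.718%), 47 higher (0.274%) and 76 lower (0.443%). Of the 161 genes higher in VAT, 6 were also called higher in spleen and 3 lower; of the 143 lower in VAT, 8 were also called lower in spleen and 2 higher. The difference between the tissues was tested as an interaction, the VAT log2 fold change minus that in spleen, which called 121 genes (0.706%), 68 above 0 (0.397%) and 53 below 0 (0.309%). Foxp3cre spleen replicate 2 stands apart, with 23170 CPM over the other-cell markers against 6053 CPM in replicate 1, and without it 85 genes were called. Of the 161 genes higher in VAT, 47 were called in the interaction in the same direction, and of the 143 lower, 42. The interaction contains the VAT difference itself, so this overlap is not independent of the VAT calls.

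Il1rl1 and Klrg1 differed between genotypes in VAT and had spleen log2 fold changes of -0.07 (SE 0.23) and -0.04 (SE 0.24). In spleen, Il1rl1 was at 39.3 and 42.1 against 33.3 and 52.5 CPM, so the groups overlapped at low levels. The interaction was -3.28 for Il1rl1 (SE 0.36, adjusted p = 0.00037) and -3.76 for Klrg1 (SE 0.37, adjusted p = 0.000217). Cxcr5 went the opposite way in VAT and was at 187 and 173 against 147 and 181 CPM in spleen, with an interaction of 3.20 (SE 0.32, adjusted p = 0.000217). Plin2 had a fall in VAT and a spleen log2 fold change of 1.15 that was not called, and its interaction was -4.21 (adjusted p = 0.00565). Other genes changed in both tissues. Ccr2 fell by 2.53 in spleen too (SE 0.33, adjusted p = 0.00149), with an interaction of -1.18 that was not called (adjusted p = 0.42). Itgae and Itgb1, the gene of the integrin beta 1 chain, rose in spleen by 1.84 and 1.00 (adjusted p = 0.00693 and 0.0103) beside rises of 2.99 and 1.10 in VAT, and their interactions were not called. Itgb1 lost its VAT call without either Blimp1-deficient VAT library (0.0651 and 0.106). Fgl2 fell by 1.69 in spleen (adjusted p = 0.0072), less than in VAT (interaction -2.24, adjusted p = 0.0169).

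Of 10 B cell markers 7 were called above 0 in the interaction and 7 were lower in Blimp1-deficient spleen Treg, while 1 (Ighd) was called in VAT. Their sums were 1467 and 1446 CPM in Blimp1-deficient and 2851 and 7331 CPM in Foxp3cre spleen libraries, and without the second Foxp3cre spleen library 5 were called in the interaction. Pou2af1 was at 41.6 and 39.7 against 78.6 and 203 CPM in spleen, a fall of 1.79 there against a rise of 4.49 in VAT, and its interaction went from 6.29 to 5.46 without that library.

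**Figure D5:**
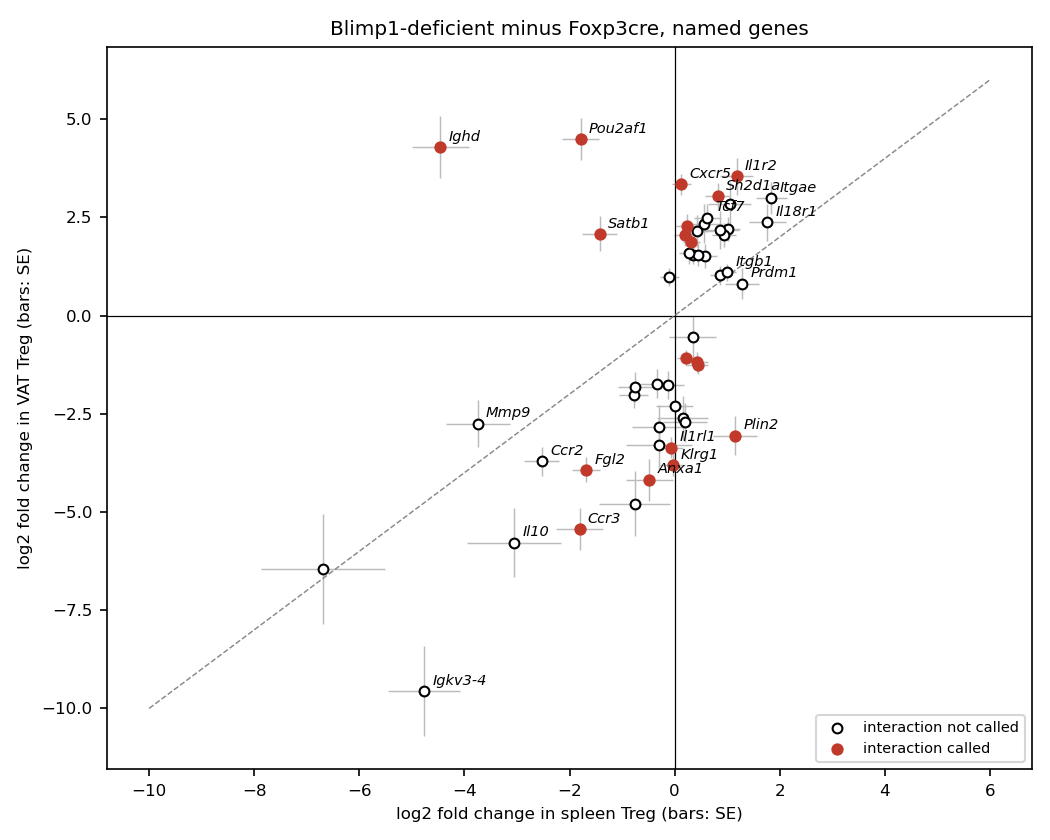
Log2 fold change of Blimp1-deficient minus Foxp3cre in VAT Treg (vertical axis) against the same in spleen Treg (horizontal axis) for the 51 named genes with counts in all 4 groups; bars are SE and the dashed line marks equal change. The 18 red genes were called in the interaction, among them Il1rl1 and Klrg1 far below 0 in VAT and near 0 in spleen, and Cxcr5 far above 0 in VAT and near 0 in spleen.

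VAT Treg of Foxp3RFP females are a separate comparison, and their levels are given for the leading genes only. Il1rl1 was at 116 and 154 CPM in them, Klrg1 at 117 and 134 CPM, Cxcr5 at 113 and 96.1 CPM and Tcf7 at 640 and 516 CPM. These values lie nearer to those of male Blimp1-deficient VAT Treg than those of any control male library do, with sex, line and genotype all differing between the groups.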

How the data were processed

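The authors deposited whole-number read counts for 27179 genes. The submitters' processing notes name Subread 1.6.2, featureCounts, GRCm38 and mm10. No source used here gives the strand setting, so antisense and overlapping genes are uncertain. In the table, 6 columns matched no sample. Gene names came from deposited tables (16534) and RefSeq (8784), and unnamed identifiers took 1.45% to 4.99% of the reads. The 15 Treg libraries hold 15215458 to 61913009 counts. The authors also deposited log2 FPKM, used as an alternative.

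Counts were fitted with edgeR 4.0.16 (filterByExpr, TMM, quasi-likelihood) over 15 libraries in 8 groups, with 7 residual degrees of freedom. The lone control was assumed to vary like the other groups. Where pools may share animals the labels do not say, so p-values measure the spread between these libraries. Replicates differed beyond sampling noise. SE is the log2 fold change over the square root of F.

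Named genes were the 12 largest changes each way (higher group at least 5 CPM), up to 4 called members of each of 31 lists, and key genes, 74 in all. Others named are list members or were chosen after their values were seen. Members, lists and tests were chosen with earlier results of these data known. The fit was tested on simulated data. Alternatives used DESeq2 1.42.0 and limma 3.58.1. Some genes are not reported here.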

Additional observations from a re-analysis of the deposited data

Results flagged for a closer look

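The difference between genotypes was not the same in VAT and spleen for 121 genes, tested as the VAT log2 fold change minus the spleen log2 fold change (edgeR adjusted p under 0.05). Among the named genes, 11 of those have 0 counts in one of the 4 groups, so that no finite value can be given: Ccr6, Cd160, Dleu2, Glt28d2, Ifi44, Il21, Ispd, Kynu, Pfkfb4, Spib and Trmt12. The other 18 follow with their values on the log2 scale.

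The difference was more negative in VAT for Plin2 (-4.21), Klrg1 (-3.76), Anxa1 (-3.70), Ccr3 (-3.62), Il1rl1 (-3.28), Fgl2 (-2.24), Junb (-1.70), Cd44 (-1.60) and Klf6 (-1.31). It was more positive in VAT for Ighd (8.74), Pou2af1 (6.29), Satb1 (3.50), Cxcr5 (3.20), Il1r2 (2.36), Sh2d1a (2.21), Oas3 (2.04), Btla (1.86) and Izumo1r (1.56). Ighd and Pou2af1 are also expressed by B cells, whose markers summed to 2851 and 7331 CPM in Foxp3cre spleen Treg and to 323 CPM in the Foxp3cre VAT library. Without Foxp3cre spleen replicate 2, 14 of the 18 genes were still called, and Il1r2, Sh2d1a, Junb and Klf6 were not (adjusted p = 0.134, 0.0505, 0.0839 and 0.0626).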

How the results depend on the processing

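The count of genes called between Blimp1-deficient and Foxp3cre VAT Treg was 304. It was 142 with 19 T cell libraries in the fit, 468 without a filter on low counts, 995 with DESeq2 and 459 with limma on the deposited log2 FPKM. With the 3 male VAT controls as one group it was 818, and 102 to 371 when one library was left out. DESeq2 kept 295 of the 304 genes, and the fit without the filter kept all 304. The fit with 19 libraries kept 142 and the one with 3 male VAT controls 255. On the deposited log2 FPKM 239 of the 296 genes present there were kept, among them 88 of the 138 lower ones. For the interaction (121), the counts were 62 with 19 libraries, 278 without the filter, 740 with DESeq2 and 55 to 188 with one library left out. Against Foxp3RFP males (785) they were 482, 1793 with DESeq2 and 257 to 966. For the Foxp3cre control against Foxp3RFP males (10), they were 3 with 19 libraries, 33 without the filter, 160 with DESeq2, 4 without 3 libraries high in other cells' markers (added after seeing the data) and 4 to 28. The cause of these shifts was not tested.

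Replicate numbers paired the libraries little, with correlations of same-numbered deviations from -0.047 to 0.202 over 21 pairs of groups. The highest was between female and male Foxp3RFP VAT Treg, and all other pairs reached at most 0.05. With the replicate number as a block the counts were 257, 80, 700 and 3. Of 72 named and called genes, 34 kept their call without either Blimp1-deficient library in turn. Among the 87 genes followed, none reversed direction under any alternative run, including DESeq2 size factors in edgeR, which ended 1 call. The Foxp3cre VAT library could not be left out, and the lack of another pool limits every comparison with it.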
